A study of Homo sapiens with 6 samples.

Results

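The genes described here encode the ligands and receptors of the tumour necrosis factor (TNF) superfamily. They were chosen by symbol: every row of the deposited table whose symbol begins with TNFRSF or TNFSF and a number, together with FAS, FASLG, TNF, LTA, LTB, LTBR, CD40, CD27, CD70 and NGFR, which made 43 of 20030 genes. Their RNA levels were compared between 2 groups of T24 cells, a line from a human urinary bladder carcinoma. The NC group had 3 libraries, and the labels give it no further description. The other group, also of 3 libraries, is labelled sh-circRIMS1 in the sample titles and si in the column names, for a knockdown of the circular RNA circRIMS1, which the series title links to miR-433-3p and CCAR1. No dose, time or clone is given, and the labels do not say whether the replicates were separate cultures, so the p-values measure the spread between these libraries, which may be technical.

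TNF superfamily ligands are mostly trimeric proteins that are anchored in the cell membrane and can be shed from it. Their receptors fall into those with a cytoplasmic death domain, which can recruit FADD or TRADD and activate caspase 8, those that bind TRAF adaptors and signal to NF-kB and to stress kinases, and decoys that bind a ligand without a working death domain. Carcinoma cells commonly carry FAS, the TNF receptor and the receptors of the death ligand TRAIL, while many of the other ligands and receptors are best known from lymphocytes and antigen-presenting cells.

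Values are FPKM, fragments scaled for transcript length and library size, as the authors deposited them. Levels are set side by side between genes on this scale. The labels' protocols name an RNase R treatment, and how far it altered the levels of single transcripts was not tested. The values summed to between 268143 and 284682 per library, and 14078 to 14906 genes lay above 0. Across the genes with a mean of at least 1 FPKM, Pearson's r of log2(FPKM + 0.5) was 0.997 within NC and between sh-circRIMS1 replicates 1 and 3. Replicate 2 of sh-circRIMS1 stood apart from them at 0.974 and 0.975, so counts are given with and without it, and single genes where its absence changes a call. RIMS1, the host gene, measured 0.426, 0.384 and 0.498 FPKM in NC and 0.222, 0.240 and 0.308 FPKM in sh-circRIMS1 (exact permutation p = 0.1), which does not separate circular from linear RNA. The keratins KRT7 and KRT18, markers of epithelial cells, were abundant but lower in sh-circRIMS1. KRT7 was at 436 ± 9.27 against 298 ± 24.7 FPKM and KRT18 at 516 ± 9.99 against 372 ± 45.1 FPKM (SD, n = 3 each; limma adjusted p = 0.00159 and 0.00742). KRT8, at 310 ± 7.07 against 199 ± 75.8 FPKM, did not pass (limma adjusted p = 0.0904), and was lowest in sh-circRIMS1 replicate 2, at 111 FPKM. EPCAM and KRT19 lay under 1 FPKM and went the other way. Their means were 0.366 and 0 FPKM in NC and 0.732 and 0.0588 FPKM in sh-circRIMS1. The 5 epithelial markers summed to 1237 to 1282 FPKM in NC and 701 to 953 FPKM in sh-circRIMS1. How far these markers bear on the results was not tested. Of 14 leukocyte markers 8 were at 0 in every library, CD3D, CD3E, MS4A1 and NKG7 among them. The 14 summed to 0.968 to 1.17 FPKM in NC and 0.711 to 1.42 FPKM in sh-circRIMS1, mainly CD14, with means of 0.903 and 1.04 FPKM. The 5 endothelial markers summed to 15.1 to 16.4 and 13.3 to 16.4 FPKM, nearly all of it CDH5, with TEK at 0, and the 6 fibroblast markers to 0.123 to 0.160 and 0.665 to 0.854 FPKM, mainly COL1A1, with DCN at 0.

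TNF superfamily genes were mostly higher in the sh-circRIMS1 cells. The 21 genes with a mean of at least 1 FPKM were tested with limma on log2(FPKM + 0.5), with Benjamini-Hochberg adjustment over all 10408 such genes. Of these 21, 14 were higher, 1 was lower and 6 did not pass an adjusted p of 0.05. The background shares among tested genes were 25.0% higher and 12.7% lower, so the higher genes were 66.7% of the tested superfamily against 25.0% in the background and the single lower gene 4.76% against 12.7%. The median log2 change was 0.53 over the 21 genes and 0.06 over all tested genes. The other 22 genes had a mean under 1 FPKM, and 2 of them, TNFRSF13B and TNFSF11, were listed at 0 in every library. One tested gene, LTB, reached the filter only through its level in sh-circRIMS1, and without it 13 of 20 were higher. The gene nearest to the limit on the other side was TNFSF10, with a mean of 0.987 FPKM. The filter also acted the other way: the ligand row TNFSF12-TNFSF13 stayed under it only because it was low in sh-circRIMS1. In NC its mean was 1.11 FPKM, against 0.306 FPKM in sh-circRIMS1, and it is in neither count.

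Scaling and single libraries moved these counts. After median of ratios scaling and after quantile normalization 13 and 12 of the 21 were higher, again with 1 lower, while over all genes 1795 were then higher and 2429 lower, or 1592 and 2084, in place of 2598 and 1322. Without sh-circRIMS1 replicate 2, 19 of 22 tested members were higher and 2 lower, against 36.8% and 23.9% of all tested genes. Of these 19, LTB and TNFSF10 reached the filter only through their level in sh-circRIMS1, with NC means of 0.709 and 0.119 FPKM. All 14 genes called higher with replicate 2 were also called without it. CD70 then changed by 1.38, TNFSF9 by 1.53, FAS by 1.37 and TNFRSF10B by 0.30 on the log2 scale. Since these are bulk samples, fewer cells with a transcript and less of it per cell cannot be told apart.

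**Figure D1:**
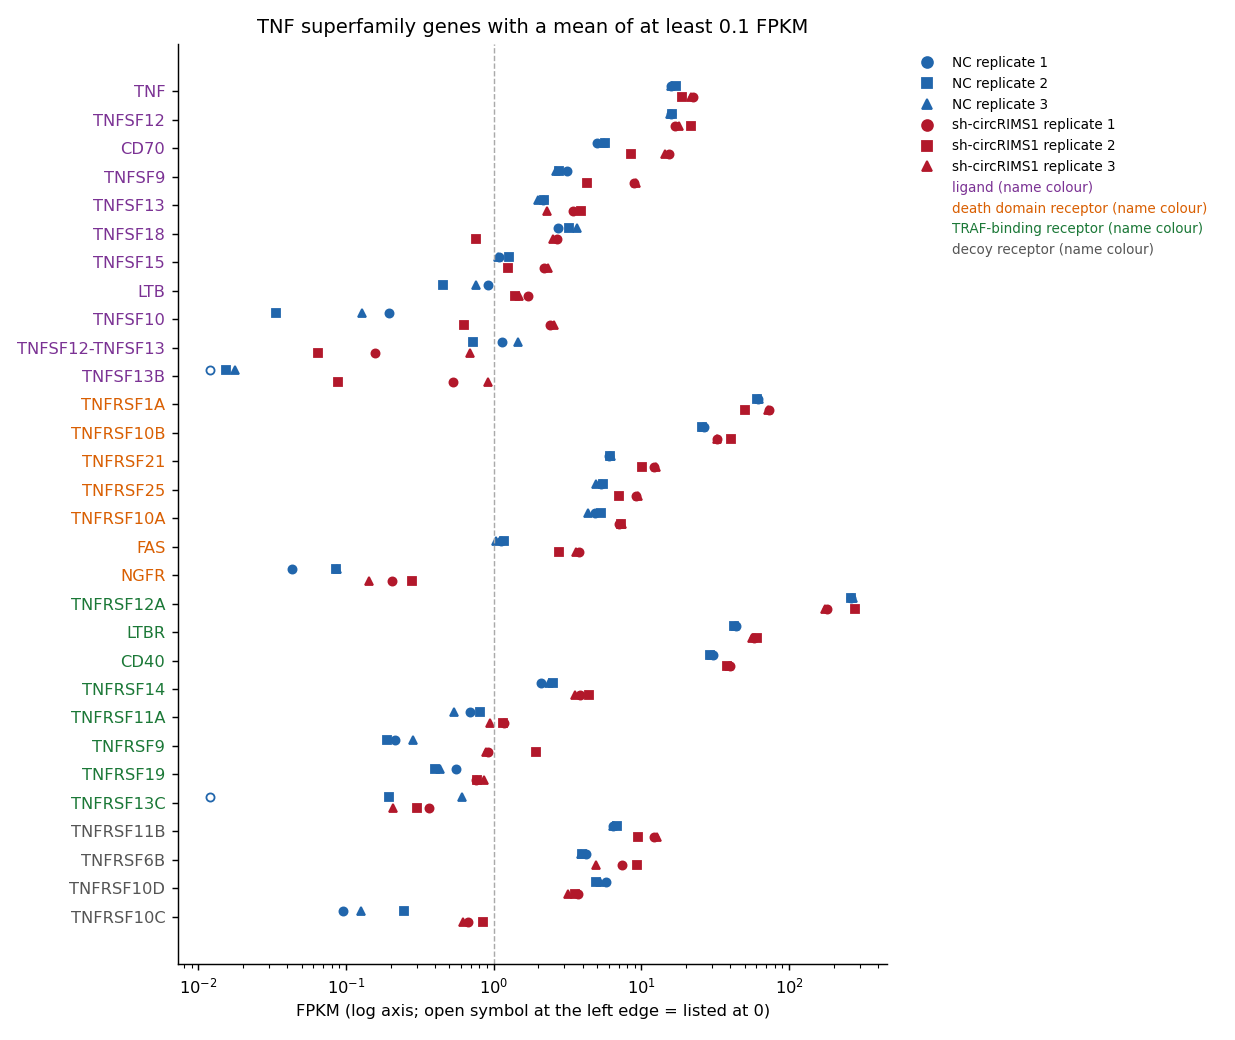
FPKM of the 30 TNF superfamily genes with a mean of at least 0.1 FPKM in each of the 6 libraries, on a log axis, with NC in blue, sh-circRIMS1 in red and symbols for replicates 1 to 3. TNFRSF12A lay highest in every library, and the dashed line marks 1 FPKM, the mean above which genes were tested.

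By level, the family in these cells was led by receptors. TNFRSF12A, the receptor of the ligand TNFSF12, had the highest mean, at 266 ± 5.73 FPKM in NC (SD, n = 3). Its mean over the 6 libraries, 239 FPKM, lay above that of 99.3% of all genes in the table. TNFRSF1A, LTBR, CD40 and TNFRSF10B followed with NC means of 61.6, 43.1, 29.8 and 26.2 FPKM. Among ligands TNF and TNFSF12 were highest, at 16.3 and 15.8 FPKM in NC. Together 7 genes had a mean above 10 FPKM over the 6 libraries, 14 lay between 1 and 10, and the 22 others lay under 1. Some partners were far apart in level: CD70 was at 5.40 FPKM in NC while its receptor CD27 lay under 0.1 FPKM in every library, and CD40 was at 29.8 FPKM while its ligand CD40LG was listed at 0 throughout.

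Among the ligands 4 of 8 tested genes were called higher and 0 lower, with 25.0% of all tested genes higher and 12.7% lower. Without LTB, which entered the test through its level in sh-circRIMS1, it was 3 of 7. Neither count holds TNFSF12-TNFSF13, which was lower and left the test through its level in sh-circRIMS1. CD70, the ligand of the lymphocyte receptor CD27, measured 4.97, 5.66 and 5.57 FPKM in the NC libraries and 15.3, 8.50 and 14.5 FPKM in the sh-circRIMS1 libraries. All 3 of the latter were above all 3 of the former, and replicate 2 was the lowest of them. The rise was 2.36-fold, with a log2 change of 1.13 and a standard error of 0.21 (limma adjusted p = 0.00690).

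TNFSF9, a costimulatory ligand of T cells, showed the same pattern of replicates. Its FPKM was 3.11, 2.77 and 2.63 in NC and 8.97, 4.26 and 9.22 in sh-circRIMS1. The groups did not overlap, and the mean was 2.64-fold higher (log2 change 1.19, standard error 0.27, limma adjusted p = 0.0145). The call was lost without NC replicate 2 or 3 (adjusted p = 0.0532 and 0.0585), within a range of 1.88e-07 to 0.0585 over 17 alternatives. Its receptor TNFRSF9 lay under the filter, at 0.213, 0.188 and 0.283 FPKM in NC and 0.908, 1.93 and 0.885 FPKM in sh-circRIMS1. Here replicate 2 was the highest library, not the lowest, and the groups did not overlap.

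TNF itself, the inflammatory cytokine that gives the family its name, rose less. It measured 15.9, 17.2 and 15.8 FPKM in NC and 22.2, 18.9 and 21.6 FPKM in sh-circRIMS1. That is a 1.29-fold higher mean, with groups that did not overlap (log2 change 0.35, standard error 0.08, limma adjusted p = 0.0132). The call did not hold after median of ratios scaling (adjusted p = 0.0742) or without NC replicate 1 or 3 (0.0607 and 0.0620), within a range of 5.75e-05 to 0.0742. LTB, which joins lymphotoxin alpha in a membrane-bound trimer, stood at 0.909, 0.454 and 0.763 FPKM in NC and at 1.70, 1.40 and 1.47 FPKM in sh-circRIMS1. It was higher in every sh-circRIMS1 library (log2 change 0.76, limma adjusted p = 0.0115), although it could be tested only because it was high in that group, and it was not called after quantile normalization (adjusted p = 0.124; range 0.00114 to 0.124 over 15 alternatives). LTA, the other subunit, lay between 0 and 0.102 FPKM in all 6 libraries, and its groups overlapped.

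TNFSF10 encodes TRAIL, a death ligand that is also a known interferon-stimulated gene. Its FPKM was 0.196, 0.0337 and 0.129 in NC against 2.39, 0.627 and 2.54 in sh-circRIMS1. All sh-circRIMS1 libraries lay above all NC libraries, with replicate 2 the lowest of its group. Its mean was 15.5-fold higher, from a low base. Being under the filter it had an exact permutation p of 0.1, the smallest that 3 against 3 libraries allow. With the filter lowered to a mean of 0.1 FPKM it rose by 1.80 on the log2 scale (standard error 0.37, limma adjusted p = 0.0109; range 6.09e-07 to 0.0473 over the 6 alternatives that tested it).

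TNFSF13B encodes BAFF, a survival factor of B cells that myeloid cells make after interferon. It was listed at 0, 0.0155 and 0.0176 FPKM in NC and at 0.526, 0.0877 and 0.913 FPKM in sh-circRIMS1. The groups did not overlap, replicate 2 was again the lowest of its group, and at the lower filter the gene did not pass (log2 change 0.89, limma adjusted p = 0.0517). It reached that filter only through its level in sh-circRIMS1. TNFSF14, a ligand of TNFRSF14 and LTBR, was listed at 0 in all NC libraries and at 0.0437, 0.0191 and 0.0839 FPKM in sh-circRIMS1.

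The other 4 tested ligands did not pass. TNFSF15, the ligand of TNFRSF25, measured 1.09, 1.26 and 1.08 FPKM in NC and 2.18, 1.24 and 2.32 FPKM in sh-circRIMS1, so only replicate 2 overlapped with NC (limma adjusted p = 0.0692). Without that replicate it was higher, by 0.75 on the log2 scale (adjusted p = 8.41e-05; range 6.45e-05 to 0.564 over 16 alternatives). TNFSF18, the ligand of TNFRSF18, went the other way, with 2.74, 3.22 and 3.67 FPKM in NC and 2.68, 0.756 and 2.52 FPKM in sh-circRIMS1. Its groups did not overlap, but most of the difference was in replicate 2 (log2 change -0.69 with a 95% interval from -1.52 to 0.15, limma adjusted p = 0.164). Without replicate 2 the change was -0.25 (adjusted p = 0.0575; range 0.0575 to 0.342).

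TNFSF12 and TNFSF13 are neighbours that also share a read-through transcript, TNFSF12-TNFSF13, so reads can be assigned to more than 1 of the 3 rows and the split between them is uncertain. TNFSF12, the ligand of TNFRSF12A, stood at 15.8, 16.0 and 15.6 FPKM in NC and 17.0, 21.7 and 17.9 FPKM in sh-circRIMS1 (limma adjusted p = 0.0877). TNFSF13, a ligand of B-lineage cells, stood at 2.15, 2.18 and 1.98 FPKM and at 3.44, 3.88 and 2.31 FPKM (adjusted p = 0.0553). For both, every sh-circRIMS1 library lay above NC, and without replicate 2 both were called higher (adjusted p = 0.0187 and 0.0371; ranges 0.0121 to 0.307 and 0.00649 to 0.322). TNFSF13 was also called without replicate 3 (adjusted p = 0.00649). The read-through row was lower, with 1.14, 0.728 and 1.46 FPKM in NC and 0.158, 0.0650 and 0.694 FPKM in sh-circRIMS1 (exact permutation p = 0.1). At the lower filter it changed by -1.05 on the log2 scale (standard error 0.30, limma adjusted p = 0.0339), and with no filter it did not pass (0.0587). TNFSF4 and TNFSF8, ligands of activated immune cells, and FASLG, the ligand of FAS, stayed under 0.14 FPKM in every library, and their groups overlapped.

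**Figure D2:**
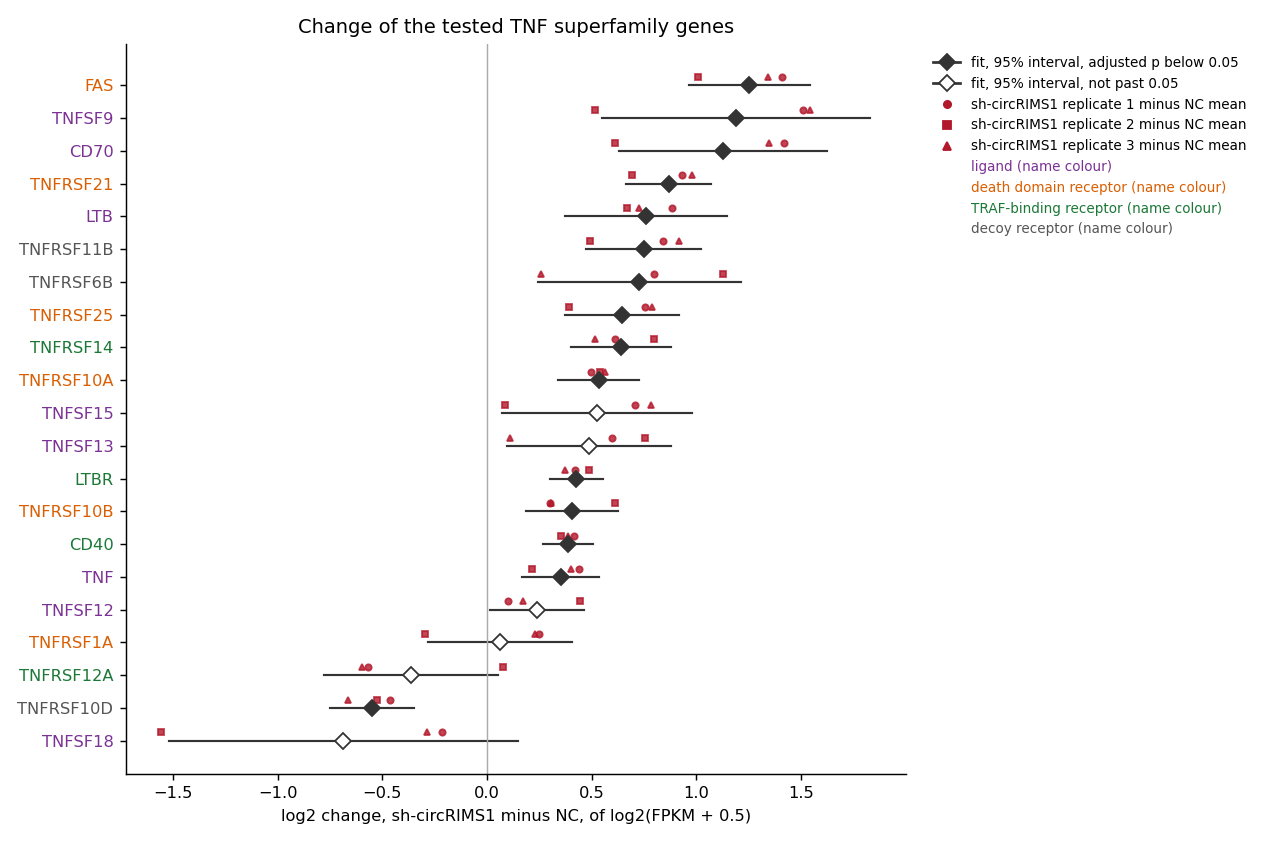
Log2 change of the 21 tested TNF superfamily genes, sh-circRIMS1 minus NC, from the fit (diamonds, filled where the adjusted p was below 0.05) with 95% intervals, and the difference of each sh-circRIMS1 library from the NC mean (red). FAS, TNFSF9 and CD70 lie above 1, TNFRSF10D is the only called gene below 0, and the square of replicate 2 falls away from the other two in TNFSF18, TNFRSF12A, TNFRSF1A, TNFSF9 and CD70.

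Promoter sequences are shown for 5 genes that were higher in every sh-circRIMS1 library and whose window holds a match to an interferon or NF-kB motif, which makes them examples chosen after the matches were seen. TNFRSF1B also has such a match but a mean under 0.1 FPKM, and it is not shown. RefSeq windows (GRCh38.p14) were found for 28 of the 43 genes, and the 250 bases before each start were searched on both strands. The letters searched were TTTC, any 2 bases and TTTC again for the core of the interferon-stimulated response element, GGG, any 2 bases and TTTCC for NF-kB, TATAAA for the TATA box and CCGGAAGT for the ETS core. Capitals mark the matches, none of which overlap each other, and sequences run 5′ to 3′ on the strand of the gene.
TNFSF10, chr3:172523431-172523680, minus strand: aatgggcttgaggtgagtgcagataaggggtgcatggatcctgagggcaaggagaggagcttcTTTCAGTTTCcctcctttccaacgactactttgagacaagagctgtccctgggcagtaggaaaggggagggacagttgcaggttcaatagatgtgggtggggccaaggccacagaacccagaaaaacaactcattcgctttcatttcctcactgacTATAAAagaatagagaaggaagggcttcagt
TNFSF13B, chr13:108269468-108269717, plus strand: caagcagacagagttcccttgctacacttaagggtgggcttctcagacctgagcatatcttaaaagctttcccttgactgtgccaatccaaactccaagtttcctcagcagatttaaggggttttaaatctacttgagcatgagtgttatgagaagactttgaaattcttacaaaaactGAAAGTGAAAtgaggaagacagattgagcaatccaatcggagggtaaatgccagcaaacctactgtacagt
TNFSF9, chr19:6530776-6531025, plus strand: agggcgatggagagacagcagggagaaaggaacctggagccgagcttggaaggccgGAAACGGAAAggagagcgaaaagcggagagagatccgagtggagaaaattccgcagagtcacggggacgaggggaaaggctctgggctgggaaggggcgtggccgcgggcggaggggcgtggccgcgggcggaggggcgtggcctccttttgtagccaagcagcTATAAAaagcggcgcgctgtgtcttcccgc
LTB, chr6:31582425-31582674, minus strand: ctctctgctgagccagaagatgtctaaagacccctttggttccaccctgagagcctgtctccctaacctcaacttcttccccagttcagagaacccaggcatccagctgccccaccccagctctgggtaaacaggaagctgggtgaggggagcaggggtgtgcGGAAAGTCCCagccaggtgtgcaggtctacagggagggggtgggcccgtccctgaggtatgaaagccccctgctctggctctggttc
TNFRSF9, chr1:7940840-7941089, minus strand: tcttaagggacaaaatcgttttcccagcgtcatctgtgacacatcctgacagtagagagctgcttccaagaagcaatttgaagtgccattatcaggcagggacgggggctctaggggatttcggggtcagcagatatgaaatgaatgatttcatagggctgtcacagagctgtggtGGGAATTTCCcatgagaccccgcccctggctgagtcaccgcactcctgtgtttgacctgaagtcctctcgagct
In TNFSF10 the interferon motif began at position -187 and the TATA box at -31, counted from the annotated start. In TNFSF9 they began at -194 and -30, and in TNFSF13B the interferon motif began at -71. The NF-kB motif began at -87 in LTB and at -74 in TNFRSF9. The interferon motif was found for 5 of the 28 genes, the other two being FASLG and TNFRSF1B, against 3.71% of 27305 genes with a window. The NF-kB motif was found for 2 of 28 against 2.12%, TATAAA for 6 of 28 against 13.0%, and the ETS core for 0 of 28 against 4.13%. These are matches of letters and not measured binding sites, and FASLG, which has the interferon motif, was nearly silent in both groups.

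Of the death domain receptors 5 of 6 tested genes were called higher and 0 lower, beside 25.0% and 12.7% of all tested genes. FAS, which drives apoptosis when bound by FASLG, had a log2 change above 1, as did TNFSF9 and CD70. It measured 1.12, 1.18 and 1.04 FPKM in NC and 3.78, 2.75 and 3.59 FPKM in sh-circRIMS1. The groups were far apart compared with their spread, and the 3.03-fold rise (log2 change 1.25, standard error 0.12, limma adjusted p = 0.000605) was called in each of the 16 alternatives that tested it. ACTA2, a gene that overlaps FAS in the annotation, went from 0.465 ± 0.0403 to 1.27 ± 0.0227 FPKM (SD, n = 3 each). The sources used here do not say whether counting used the strand, and the part of shared reads in the FAS value was not tested.

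TNFRSF21, also called death receptor 6, was tightly grouped. Its FPKM was 6.01, 6.09 and 6.18 in NC and 12.1, 10.2 and 12.5 in sh-circRIMS1, a 1.90-fold higher mean (log2 change 0.87, standard error 0.09, limma adjusted p = 0.000635). TNFRSF25, the receptor of TNFSF15, stood at 5.31, 5.45 and 4.96 FPKM and at 9.18, 7.02 and 9.42 FPKM. In both genes all sh-circRIMS1 libraries were above NC with replicate 2 the lowest of them, and the log2 change of TNFRSF25 was 0.64 (standard error 0.11, limma adjusted p = 0.00587).

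TNFRSF1A, the main receptor of TNF on non-lymphoid cells, was not called. It measured 61.5, 60.5 and 62.8 FPKM in NC and 73.3, 50.1 and 72.3 FPKM in sh-circRIMS1. Replicates 1 and 3 lay above NC and replicate 2 below it, which left a log2 change of 0.06 with a 95% interval from -0.28 to 0.41 (limma adjusted p = 0.755). Without replicate 2 it was higher by 0.24 (adjusted p = 0.000114; range 0.000114 to 0.923 over 17 alternatives), and without replicate 1 or 3, or after median of ratios scaling, the estimate was below 0. NGFR, the neurotrophin receptor of the family, was at 0.0428, 0.0858 and 0.0862 FPKM in NC and 0.204, 0.282 and 0.143 FPKM in sh-circRIMS1. The groups were apart, and the adjusted p by limma was 0.0524 at the lower filter and 0.0331 with no filter. NGFR reached the lower filter only through its level in sh-circRIMS1.

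TRAIL and its receptors formed a set in which the signalling receptors rose and the decoys moved in different directions. TNFRSF10A, a death receptor of TRAIL, measured 4.83, 5.35 and 4.37 FPKM in NC and 7.03, 7.27 and 7.40 FPKM in sh-circRIMS1. The 3 sh-circRIMS1 libraries, replicate 2 included, were close to each other, and the rise on the log2 scale was 0.53 (standard error 0.08, limma adjusted p = 0.00317). TNFRSF10B, the other death receptor of TRAIL, was more abundant in both groups. Its values were 26.7, 25.9 and 26.0 FPKM in NC and 32.4, 40.3 and 32.5 FPKM in sh-circRIMS1, with replicate 2 the highest (log2 change 0.41, standard error 0.09, limma adjusted p = 0.0147). Leaving out NC replicate 1, 2 or 3 lost the call (adjusted p = 0.0530, 0.0596 and 0.0605; range 6.40e-05 to 0.0605).

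TNFRSF10D, a decoy with a truncated death domain, was the only tested member called lower. It went from 5.74, 4.96 and 5.27 FPKM in NC to 3.72, 3.54 and 3.17 FPKM in sh-circRIMS1. The groups did not overlap, the mean dropped to 0.653 of its NC level (log2 change -0.55, standard error 0.08, limma adjusted p = 0.00335), and the call held in each of the 16 alternatives that tested it. TNFRSF10C, a decoy anchored by a lipid and without a death domain, was at 0.0951, 0.246 and 0.127 FPKM in NC and at 0.670, 0.845 and 0.615 FPKM in sh-circRIMS1. It thus lay higher in every sh-circRIMS1 library, with a log2 change of 0.89 at the lower filter (standard error 0.12, limma adjusted p = 0.00241). The 4 TRAIL receptor genes are neighbours and related in sequence, and the sources used here do not say how reads shared between them were counted.

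TNFRSF11B encodes osteoprotegerin, a secreted decoy for TNFSF11 that also binds TRAIL. It rose from 6.39, 6.86 and 6.44 FPKM to 12.2, 9.42 and 12.8 FPKM, with no overlap (1.75-fold, log2 change 0.75, standard error 0.12, limma adjusted p = 0.00338). TNFSF11 itself was listed at 0. TNFRSF6B, a soluble decoy for FASLG, TNFSF14 and TNFSF15, measured 4.20, 3.96 and 3.93 FPKM in NC and 7.38, 9.39 and 4.91 FPKM in sh-circRIMS1. The sh-circRIMS1 libraries were all higher but widely spread (log2 change 0.73, standard error 0.20, limma adjusted p = 0.0301). That call was lost without any 1 NC replicate, without sh-circRIMS1 replicate 1, after quantile normalization and with no filter, with adjusted p between 0.00410 and 0.0954 over 17 alternatives. ARFRP1, which overlaps TNFRSF6B in the annotation, measured 20.4 ± 0.636 FPKM in NC and 24.1 ± 0.262 FPKM in sh-circRIMS1 (SD, n = 3 each), and the part of shared reads was not tested.

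**Figure D3:**
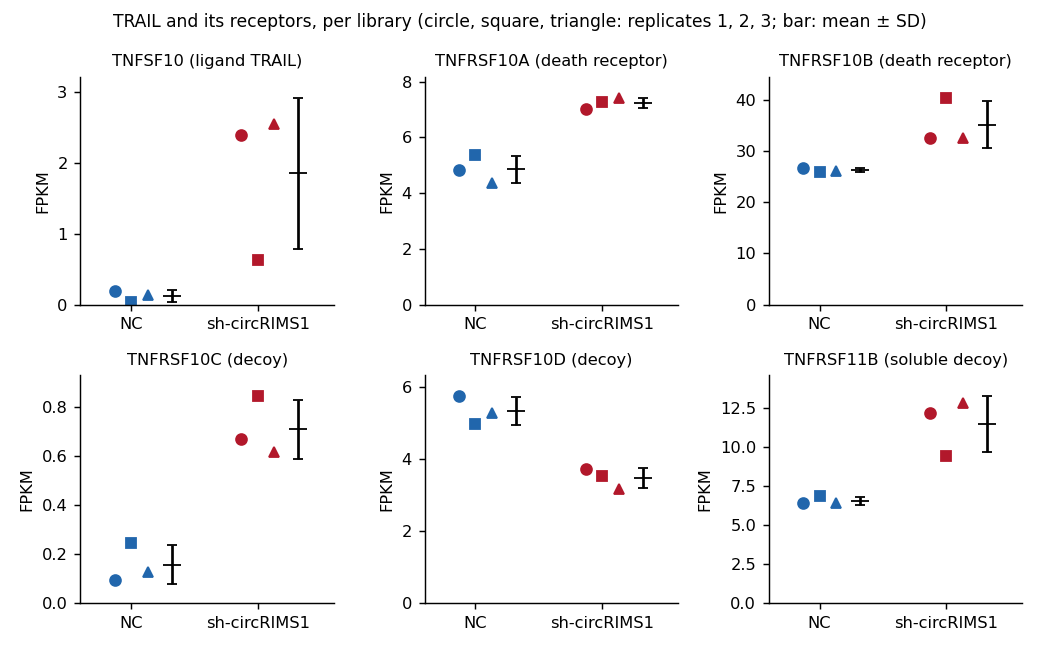
FPKM of TNFSF10, which encodes TRAIL, of its death receptors TNFRSF10A and TNFRSF10B, and of the decoys TNFRSF10C, TNFRSF10D and TNFRSF11B in each library, on axes that start at 0, with the mean ± SD of 3 libraries beside the points. In TNFRSF10D the sh-circRIMS1 libraries lie below NC, and in the other 5 genes above it.

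Of the receptors that bind TRAF adaptors 3 of 4 tested genes were called higher and 0 lower, beside 25.0% and 12.7% of all tested genes. LTBR, the lymphotoxin beta receptor, measured 43.7, 42.3 and 43.3 FPKM in NC and 57.9, 60.6 and 55.9 FPKM in sh-circRIMS1. CD40, a receptor of antigen-presenting cells that many carcinomas also carry, measured 30.6, 29.1 and 29.8 FPKM and then 40.0, 38.2 and 39.2 FPKM. Both were higher in all 3 libraries alike, 1.35-fold and 1.31-fold, with little spread. Log2 changes were 0.43 for LTBR and 0.39 for CD40 (standard error 0.05 each, limma adjusted p = 0.00156 and 0.00186), and both were called in each of 17 alternatives. TNFRSF14, a receptor of TNFSF14 and LTA, stood at 2.10, 2.50 and 2.38 FPKM in NC and at 3.81, 4.40 and 3.54 FPKM in sh-circRIMS1. Its groups did not overlap (log2 change 0.64, standard error 0.10, limma adjusted p = 0.00354).

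TNFRSF12A, the most abundant member, was split between the sh-circRIMS1 libraries. Its FPKM was 264, 262 and 273 in NC and 179, 281 and 176 in sh-circRIMS1. Replicates 1 and 3 lay below every NC library, and replicate 2 lay above every NC library. The log2 change was -0.36 with a 95% interval from -0.78 to 0.05 (limma adjusted p = 0.143). Without replicate 2 it was -0.58 and passed (adjusted p = 1.13e-07; range 1.13e-07 to 0.447 over 17 alternatives).

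The other receptors of this kind had means under 1 FPKM. TNFRSF11A, the receptor of TNFSF11, stood at 0.694, 0.801 and 0.537 FPKM in NC and 1.17, 1.15 and 0.940 FPKM in sh-circRIMS1, and TNFRSF19 at 0.555, 0.399 and 0.434 FPKM and 0.754, 0.765 and 0.862 FPKM. Neither gene's groups overlapped, and both were called higher at the lower filter, as was TNFRSF9 (limma adjusted p = 0.0261, 0.0135 and 0.00684). TNFRSF13C, a receptor of BAFF, was listed at 0, 0.195 and 0.614 FPKM in NC and at 0.361, 0.301 and 0.208 FPKM in sh-circRIMS1, with groups that overlapped.

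For some of the lowest genes the FPKM steps could be read as numbers of fragments. These genes were selected because their values, scaled by the relative depth of the libraries, fell within 0.1 of whole multiples of the smallest value. TNFSF4, TNFSF8, TNFSF14 and LTA, which also had means under 0.1 FPKM, did not meet this rule and are left out. The numbers below hold if the smallest value of a gene is a single fragment. TNFRSF1B, the TNF receptor of leukocytes, then had 1, 1 and 1 fragments in NC and 5, 17 and 8 in sh-circRIMS1, with replicate 2 the highest. TNFRSF8, a receptor of activated lymphocytes, had 3, 1 and 0 against 6, 4 and 6. These 2 genes, which are neighbours on the chromosome, were higher in every sh-circRIMS1 library (exact permutation p = 0.1 each). CD27, FASLG, TNFRSF4, TNFRSF17 and TNFRSF18 had at most 4 fragments in any library, and no direction could be read from them.

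Of the 20 members under the filter and above 0 somewhere, 10 had groups that did not overlap with sh-circRIMS1 higher, and 1, TNFSF12-TNFSF13, with sh-circRIMS1 lower. Among the 5809 genes of the table under the filter and above 0 somewhere, 29.0% and 2.96% did so. At a filter of 0.1 FPKM 30 members were tested, of which 19 were higher and 2 lower, against 26.6% and 10.9% of 12636 genes. Of the 9 with a mean between 0.1 and 1 FPKM 5 were higher and 1 lower, against 34.2% and 2.24% of the 2228 genes in that range. TNFSF13B and NGFR, which are among the 9 and were not called, reached the filter of 0.1 FPKM only through their level in sh-circRIMS1. Their NC means were 0.0110 and 0.0716 FPKM. In the 21 tested members 16 had groups apart with sh-circRIMS1 higher and 2 with it lower, against 35.5% and 22.0% of all tested genes.

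Replicate 2 of sh-circRIMS1 did not simply show a smaller change. Among the 21 tested members it was the lowest of its group in 12, the highest in 7 and between the others in 2, and over all tested genes the shares were 43.5% lowest and 45.7% highest. The ligands CD70, TNFSF9, TNFSF10, TNFSF13B and TNFSF15 had smaller rises in it, TNFRSF9, TNFRSF6B, TNFRSF10B and TNFSF12 had larger ones, and TNFRSF12A and TNFRSF1A changed sides. On the log2 scale TNFSF9 in replicates 1, 2 and 3 exceeded the NC mean by 1.51, 0.51 and 1.55, and FAS by 1.41, 1.01 and 1.34. The labels name no batch for this library, and the reason was not tested.

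**Figure D4:**
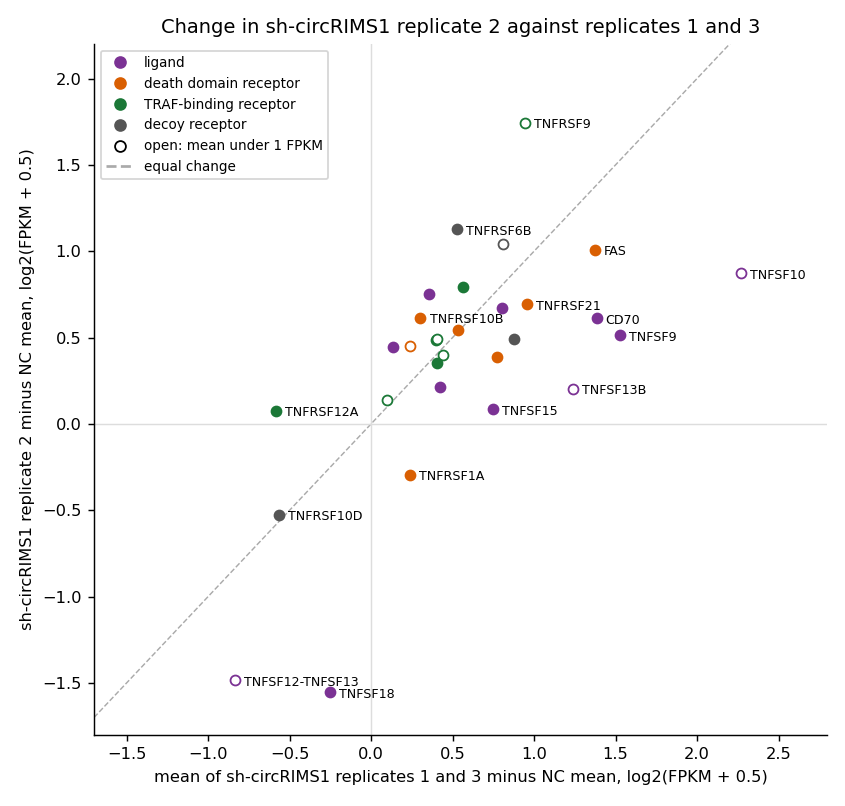
Difference from the NC mean in sh-circRIMS1 replicate 2 against the mean difference in replicates 1 and 3, on log2(FPKM + 0.5), for the 30 genes with a mean of at least 0.1 FPKM, coloured by role. TNFSF10, TNFSF9, CD70 and TNFSF13B lie below the dashed line of equal change, TNFRSF9 and TNFRSF6B above it, and TNFRSF12A and TNFRSF1A have opposite signs on the axes.

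By RefSeq annotation, 24 of the 43 genes lay within 200 kb of another member, in 9 groups of neighbours. TNFSF9, CD70 and TNFSF14 form one such group, and all 3 were higher in every sh-circRIMS1 library, TNFSF14 from 0. The group of LTA, TNF and LTB held both the called TNF and LTB and the near-silent LTA. TNFRSF10A, TNFRSF10B, TNFRSF10C and TNFRSF10D are neighbours of which TNFRSF10D alone was lower. TNFSF18 and TNFSF4, and TNFRSF18 and TNFRSF4, are pairs in which no gene was called.

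A few genes of the superfamily carry other symbols. RELT, a TNF receptor family member, measured 6.94, 6.65 and 6.45 FPKM in NC and 6.02, 6.01 and 6.10 FPKM in sh-circRIMS1. Every sh-circRIMS1 library lay below NC, but the log2 change of -0.13 did not pass (limma adjusted p = 0.110), whereas it did after median of ratios scaling and quantile normalization (adjusted p = 0.0137 and 0.0163; range 0.0137 to 0.314). EDA, the ligand ectodysplasin, lay higher, with 0.457, 0.419 and 0.481 FPKM in NC and 0.622, 0.932 and 0.799 FPKM in sh-circRIMS1 (exact permutation p = 0.1). Its receptors EDAR and EDA2R were listed at 0 or at a single fragment.

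Downstream of the receptors, the genes that rose had different roles. They included TNIP1, TNFAIP3 and NFKBIA, which limit NF-kB, and TRADD, TRAF5 and CASP8, which carry the signal. The NF-kB inhibitor NFKBIA went from a mean of 85.7 FPKM in NC to 131 FPKM in sh-circRIMS1 (log2 change 0.60, limma adjusted p = 0.00661). The inhibitors NFKBIB and NFKBIE did not pass. The list held 57 adaptors, kinases, ubiquitin enzymes, caspase arm, NF-kB arm and shedding genes, of which 53 were tested. Of these 18 were higher (34.0%, against 25.0% of all tested genes), 3 were lower (5.66%, against 12.7%) and 32 did not pass. The median log2 change was 0.19, against 0.06 for all tested genes. After median of ratios scaling 14 were higher and 8 lower (26.4% and 15.1%, against 17.2% and 23.3% of all tested genes). After quantile normalization the counts were 12 and 5 (22.6% and 9.43%, against 15.3% and 20.0%), so the split moved with scaling, in the list and over all tested genes. Without sh-circRIMS1 replicate 2 it was 22 and 7, or 41.5% and 13.2%, beside 36.8% and 23.9% of all tested genes.

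TNIP1, which helps TNFAIP3 to limit NF-kB, had the smallest p, rising from 15.0 ± 0.268 to 32.0 ± 1.59 FPKM (SD, n = 3 each; log2 change 1.07, limma adjusted p = 9.64e-05). TNFAIP3, the ubiquitin-editing feedback inhibitor, rose by 0.98 on the log2 scale. TRADD, the adaptor at the TNFRSF1A and TNFRSF25 death domains, rose from 4.93 ± 0.326 to 9.48 ± 0.325 FPKM (SD, n = 3 each; log2 change 0.88, limma adjusted p = 0.000296). TRAF5, an adaptor of LTBR and CD40, went from 2.70 to 4.67 FPKM and RNF31, the catalytic subunit of the linear ubiquitin ligase, from 7.87 to 14.5 FPKM. CASP8, the caspase that FAS and the TRAIL receptors activate, went from 11.9 to 18.5 FPKM. These 6 genes had the smallest p of the list, and all were higher in every sh-circRIMS1 library.

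The genes of the list that were called lower were SPPL2A, MAP3K14 and MAP3K7. SPPL2A, a protease that cleaves the membrane stub of TNF after shedding, went from 7.24 ± 0.234 to 4.97 ± 0.817 FPKM (SD, n = 3 each; log2 change -0.51, limma adjusted p = 0.0114). The kinase of the non-canonical NF-kB arm, MAP3K14, and that of the canonical arm, MAP3K7, had log2 changes of -0.28 and -0.26 (limma adjusted p = 0.0308 and 0.0217). Both of these calls were lost without any 1 NC replicate, and that of SPPL2A without NC replicate 2 (adjusted p = 0.0511).

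**Figure D5:**
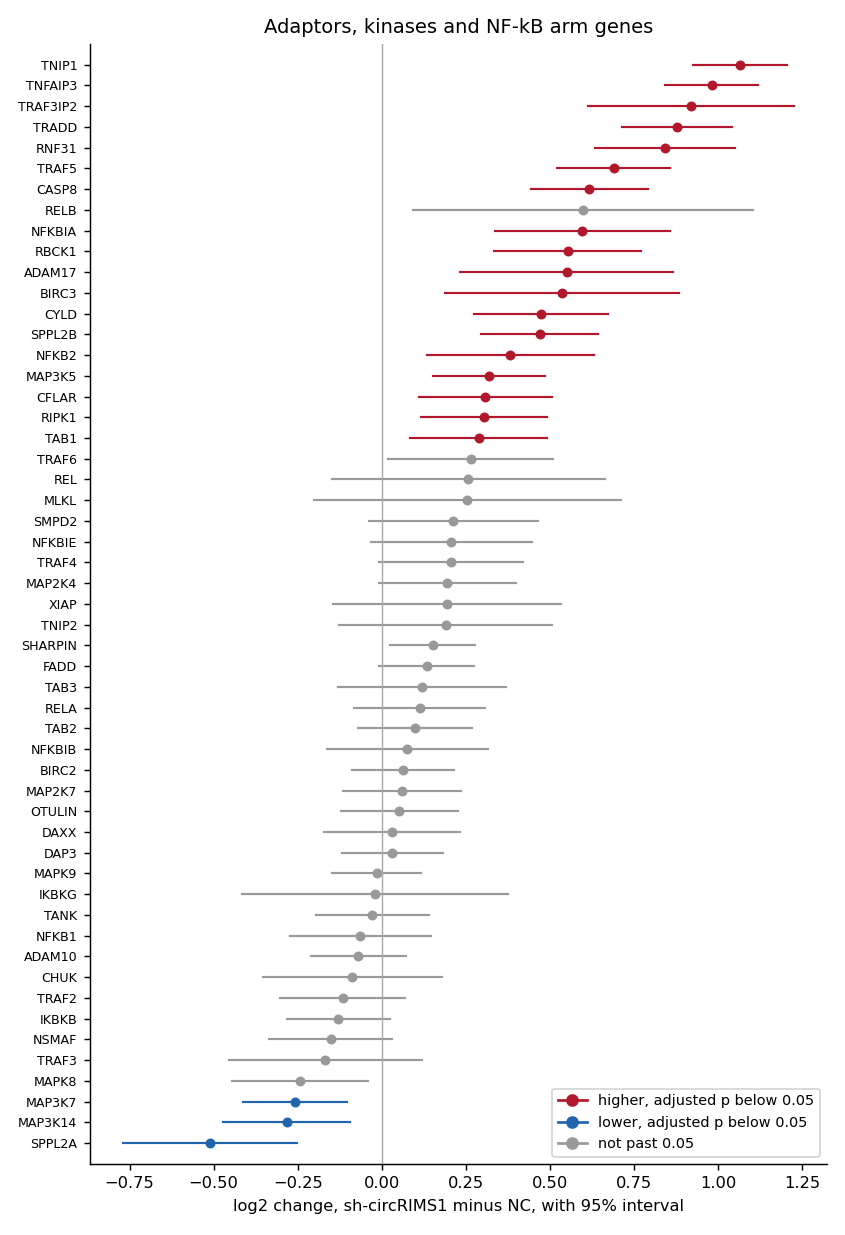
Log2 change with 95% interval of the 53 tested genes downstream of the receptors, sh-circRIMS1 minus NC, in red where higher and in blue where lower at an adjusted p below 0.05. TNIP1 and TNFAIP3 lie at the top with 1.07 and 0.98, and 3 genes are called below 0.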

How the data were processed

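RNA sequencing of 6 T24 libraries was analysed. Per the labels' protocols, TRIzol RNA was depleted of ribosomal RNA, treated with RNase R and made into directional libraries, although linear RNAs such as GAPDH, at 2463 FPKM in NC, were abundant. The authors deposited FPKM per gene, per the file name. The tools named, per the submitters' processing notes, include HISAT2, StringTie, Cufflinks, HTSeq, Trimmomatic and DESeq; their roles and settings, and the genome build, were not given. Columns named si were matched to titles named sh by the circ name and number.

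FPKM is already normalized, so no count model was used and absolute depth is unknown. Steps of values under 0.3 FPKM placed relative depth at 1.17, 1.01, 1.05, 1.03 and 1.08 times NC replicate 1 for NC replicates 2 and 3 and sh-circRIMS1 replicates 1, 2 and 3. Genes with a mean of at least 1 FPKM were compared on log2(FPKM + 0.5) by limma (version 3.58.1, R 4.3.3), two-sided, with a mean-variance trend and no covariate, at a Benjamini-Hochberg adjusted p of 0.05. This scale understates the change of low genes, and folds are ratios of mean FPKM. Genes under the filter had an exact permutation test (two-sided), whose smallest p is 0.1. The script was tested on simulated data.

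Every member with a mean of at least 1 FPKM was named, others by their range or, from a mean of 0.1 FPKM, by library. Up to 6 called genes in each direction were named from the signalling list, and other names were chosen after values were seen. The promoters shown were picked for their matches, in place of the rule set for them, the called members with the largest change. Members, lists and tests were chosen with earlier results of these data known. Alternatives covered pseudocount, filter, scaling, trend, array weights, a replicate block and leaving out each library. All 43 members were matched to RefSeq by GeneID.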

Additional observations from a re-analysis of the deposited data

How the results depend on the processing

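Of 517 combinations of 31 named genes and an alternative, 477 kept direction and side of the threshold, 24 lost the call, 13 gained it and 3 turned direction. All 3 turns were TNFRSF1A, whose log2 change was -0.064 after median of ratios scaling and, with single libraries left out, ran from -0.032 (without sh-circRIMS1 replicate 1; -0.022 without replicate 3) to 0.24, the last without replicate 2 and the only one of these called. The count of higher members ran from 11 to 19 when single libraries were left out. The count of lower members was 2 at a mean of at least 0.1 FPKM and with array weights, 0 at a mean of at least 5 FPKM, where TNFRSF10D was not tested, and 1 to 2 without single libraries. Over all genes, the higher count was 1469 at a mean of at least 5 FPKM, 1592 after quantile normalization, 3983 with array weights and 1630 to 3803 without single libraries. The lower count was 2429 after median of ratios scaling, 2084 after quantile normalization, 2424 with array weights and 685 to 2474 without single libraries. The lower count of the signalling list was 8 after median of ratios scaling, 5 after quantile normalization, 8 with array weights, 1 with the replicate block and 0 to 7 without single libraries. Apart from a filter that tests fewer genes, and a left-out library, the cause was not tested. Same-numbered libraries did not deviate together (r = -0.026, -0.0033 and -0.040 for numbers 1, 2 and 3), so the numbers were not taken as pairs. With the replicate block 15 members were higher and 1 lower, and 2142 and 996 of all genes; TNFSF13 gained the call (adjusted p = 0.0424) and MAP3K7 and MAP3K14 lost it (0.0612 and 0.0539). Depth limits the genes under 0.1 FPKM, which rest on a few fragments.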
